A study of Mus musculus with 4 samples.

Results

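Genes for the repair of broken DNA were examined in PRO-seq data from mouse embryonic stem (mES) cells in which the zinc-finger protein Zfp574 was removed, with attention to Polq, which encodes DNA polymerase theta. The list held 40 genes chosen by function, with earlier results of these data known. They serve homologous recombination, end joining, crosslink repair and single-strand break repair. Of these, 39 had a row in the table of 12486 genes, and Rad51c was not analysed here. PRO-seq labels nascent RNA at the active site of engaged RNA polymerase, so that a count per gene reflects ongoing transcription and not the amount of mature messenger RNA. All cells were diploid, derived from a haploid mES line, and carried an auxin-inducible degron (AID) at the N terminus of Zfp574 in a parental line that expresses the OsTir1 ligase from an EF1a promoter. Both the parental and the tagged line were obtained by picking clones, and other clones were not compared here. The 0 h control received no treatment, and the 6 h depletion received 500 µM of the auxin indole-3-acetic acid (IAA), with 2 biological replicates each. Untagged cells given IAA were not analysed here, so that loss of Zfp574 and any effect of IAA cannot be told apart.

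A break through both DNA strands is mended along several routes. Homologous recombination copies the sequence of a sister chromatid: nucleases first resect the ends, and Brca2 and its partners then act on the exposed strand. Classical end joining instead seals the ends directly, with the Ku proteins, Prkdc and Lig4. Polymerase theta serves a further route, in which short matching stretches in resected ends are annealed and filled in, and which is thought to use Parp1 and Lig3. Embryonic stem cells spend much of their short cell cycle in S phase and are known for high activity of recombination.

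Polq was the member whose transcription changed most. It had 160 and 194 counts at 0 h, and 105 and 100 at 6 h, although the depletion libraries were sequenced more deeply (total counts of 3298864 and 3616429 in the controls, against 6045216 and 5670904). Scaled to counts per 1000000 (CPM) of the TMM-adjusted library size, this was 48.1 and 52.9 CPM in the controls and 17.6 and 17.8 CPM after depletion. The replicates lay close together and the conditions were far apart. The mean fell from 50.5 ± 3.44 CPM (SD, n = 2) to 17.7 ± 0.112 CPM (SD, n = 2), a log2 fold change of -1.51 ± 0.13 (standard error), with a 95% interval from -1.77 to -1.26. After 6 h, Polq was thus transcribed at 35.0% of its control level (95% interval 29.3% to 41.9%). By the quasi-likelihood test of edgeR, Benjamini-Hochberg adjusted across 11853 tested genes, the adjusted p was 5.12e-09. Among these genes the log2 fold change of Polq ranked 24 from the lowest.

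Polq lies on chromosome 16 (ENSMUSG00000034206, mm10, 37011786 to 37095417, plus strand) and spans 83.6 kb. The nearest row of the count table before it, Golgb1, ends 78701 bp away and is transcribed from the same strand. Golgb1 had 32 and 30 counts at 0 h, and 51 and 63 at 6 h, a log2 fold change of 0.15 ± 0.23 (standard error), with an adjusted p of 0.810 in edgeR's test. Iqcb1, the next row on that side, had a log2 fold change of 0.20 (standard error 0.09, adjusted p 0.284). On the other side the nearest row was Gtf2e1, at a distance of 414373 bp and on the opposite strand, with a log2 fold change of -0.13 (standard error 0.17, adjusted p 0.768). None of these 3 neighbours passed the threshold, and the 95% interval of each excluded a 2-fold fall. No row of the table overlapped Polq or began beside it on the opposite strand.

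The bases before the start of Polq are shown because its fall was the largest among the members. They are shown together with those of Sem1 and Rad1, genes of the wider repair pathway that are described later. The bases before Parp1, the other member called lower, are shown too. The sequences are promoters from RefSeq on GRCm38.p6, read 5′ to 3′ on the strand of the gene. Each holds the 250 bases before the annotated start, and that of Sem1 runs 13 bases further. Their positions are chr16:37011536-37011785 for Polq, chr6:6578646-6578908 (minus strand) for Sem1, chr15:10485768-10486017 for the first of the starts listed for Rad1, and chr1:180568641-180568890 for Parp1.

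Polq: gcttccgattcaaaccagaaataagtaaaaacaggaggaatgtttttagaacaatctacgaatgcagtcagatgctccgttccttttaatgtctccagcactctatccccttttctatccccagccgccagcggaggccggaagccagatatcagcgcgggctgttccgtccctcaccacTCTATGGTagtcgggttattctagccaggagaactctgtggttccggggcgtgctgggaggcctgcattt
Sem1: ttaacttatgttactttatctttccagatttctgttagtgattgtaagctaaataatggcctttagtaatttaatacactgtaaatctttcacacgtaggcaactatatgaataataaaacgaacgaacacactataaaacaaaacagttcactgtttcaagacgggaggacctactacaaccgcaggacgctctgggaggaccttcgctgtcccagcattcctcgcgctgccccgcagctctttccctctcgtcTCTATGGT
Rad1: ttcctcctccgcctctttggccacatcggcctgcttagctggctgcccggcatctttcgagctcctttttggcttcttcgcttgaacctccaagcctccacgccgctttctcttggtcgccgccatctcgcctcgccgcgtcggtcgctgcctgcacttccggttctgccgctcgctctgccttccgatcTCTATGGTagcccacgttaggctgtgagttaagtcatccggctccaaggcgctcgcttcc
Parp1: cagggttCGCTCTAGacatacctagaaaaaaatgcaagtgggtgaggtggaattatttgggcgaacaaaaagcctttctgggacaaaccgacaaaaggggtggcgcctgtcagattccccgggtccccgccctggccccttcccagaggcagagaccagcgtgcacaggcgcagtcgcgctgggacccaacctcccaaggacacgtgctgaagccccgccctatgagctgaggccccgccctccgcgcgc

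The capitals mark 8-base words that were picked from these data, after the values were seen, from those in at least 8 promoters of the genes called lower by 2-fold, ranked by that share over the share among all tested genes, both strands searched. The word ranked next after the first, CTCTATGG, overlaps it and was in 10 of these 34 genes (29.4%) and in 122 tested genes (1.31%). TCTATGGT was present in 8 of the 34 such genes with a listed promoter (23.5%), Polq among them, and in 82 of 9295 tested genes (0.882%). Polq helped to choose the word, so its presence there is a description and no test. In Polq the word begins 70 bases before the start. It was in no other member of the 27 searched, and in Sem1 and Rad1 among 64 searched genes of the wider pathway. These 2 genes moved in opposite directions, Sem1 down and Rad1 up. Of the 74 other tested genes that hold the word, 13 were called lower and 4 higher at an adjusted p under 0.05. Among all genes tested, 1.40% and 1.11% were. Those shares also cover genes lower by 2-fold and genes without a listed promoter, which the 74 leave out. That comparison was not tested. The second marked word, CGCTCTAG, was in Parp1, far from the start, and in Lig1 among the members, in 8 of the 34 genes called lower by 2-fold (23.5%) and in 155 of 9295 tested genes (1.67%).

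Promoters were also searched for 11 short sequences known from promoters of growing cells, on both strands of the 300 bases that include 50 after the start. RefSeq promoters were listed for 28 of the 39 members, in 33 windows, and not for Exo1, Fancd2, Nbn, Prkdc, Rad50, Rad51d, Rad54b, Rbbp8, Rif1, Wrn and Xrcc2. The Polq window held the ETS core CCGGAAG once, at 113 bases before the start, TTTGAA (the CHR element of cell cycle genes) at 2 positions, and AAGATGG (the YY1 core) at 2, just after the start. AAGATGG was in the window of 1 member, and in 6.34% of all 32851 promoters. GGGCGG (the GC box) was absent from the Polq window, and occurred in 22 of the 33 member windows (66.7%) against 35.7% of all promoters. The Parp1 window held GGGCGG at 4 positions. GCATGCG (the NRF1 core) was in 8 of 33 member windows (24.2%, against 3.58% of all) and CCAAT (the NF-Y box) in 15 (45.5%, against 37.4%). CCGGAAG was in 7 (21.2%, against 8.86%), TTTGAA in 3 (9.09%, against 17.9%), TTTCCCG in 4 (12.1%, against 3.39%), and TTTGGCG in 1 (3.03%, against 1.56%); these last 2 are forms of the E2F site. TGACGTC (the CRE) was in 2 (6.06%, against 3.21%), TATAAA in 2 (6.06%, against 13.6%) and TACAATT (part of the ZNF143 site) in 2 (6.06%, against 2.26%). The members were not compared with other transcribed genes in these shares.

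**Figure D1:**
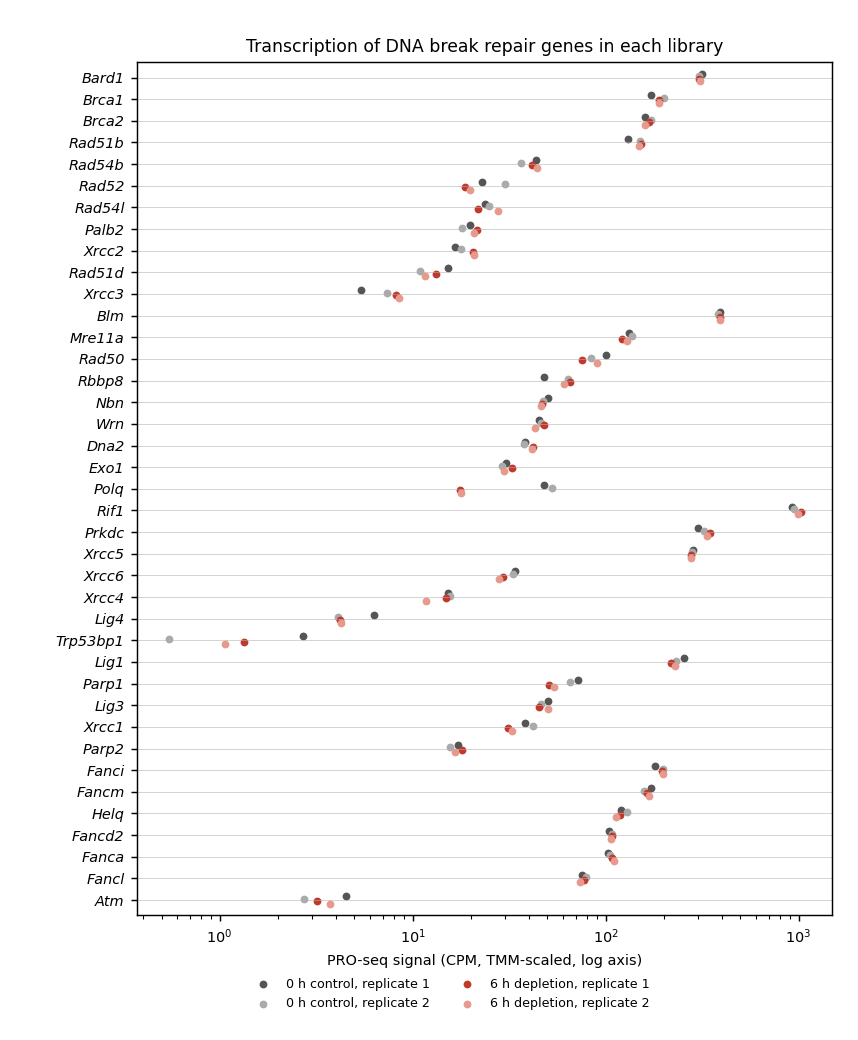
PRO-seq signal of the 39 members with a row in each of the 4 libraries, in CPM on a log axis. Each point is a library (grey, 0 h control; red, 6 h depletion) and genes are grouped by role. Polq shows the widest separation, with 48.1 and 52.9 CPM in the controls and 17.6 and 17.8 CPM after depletion.

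Across the members, 38 of 39 passed the filter on low counts and were tested. The member that did not was Trp53bp1, whose protein shields ends from resection, with 9 and 2 counts at 0 h, and 8 and 6 at 6 h. At an adjusted p under 0.05, 2 of the 38 were lower, Polq and Parp1, and 0 were higher. Among all genes tested, 1.40% were called lower and 1.11% higher. At an unadjusted p under 0.05 there were 6 members in either direction, and 16.2% of all genes tested reached that level, so this count is near the background. DESeq2 with its own size factors called 1 member lower and 0 higher, and 0.489% and 0.112% of the 12486 genes it was fitted on. Polq was the 1 member called lower by at least 2-fold, where 0.321% of all genes tested were. Polq led the list, which was chosen with earlier results of these data known, so the call of Polq is a description and no test. Without Polq, 1 of 37 tested members was lower (2.70%) and 0 were lower by 2-fold. The median log2 fold change of the 38 members was -0.006, beside -0.002 for all genes tested, with 19 members below 0 and 19 above. In 11 members both depletion libraries lay below both controls and in 8 above, where 22.9% and 23.4% of all genes tested did so.

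For most members the data limit the size of any change. The 95% interval of the log2 fold change lay within 2-fold in either direction for 37 of the 38, the exception being Polq, and within 0.5 on the log2 scale for 29. Of all 11853 genes tested, 11028 and 7800 had such intervals, so most genes were limited in this way. These intervals come from the fit with TMM scaling, and another scaling would shift them. The summed signal of the 39 members was 4573 and 4641 CPM in the controls and 4646 and 4618 CPM after depletion. The sums overlapped between the conditions, and Polq made up a small part of them.

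**Figure D2:**
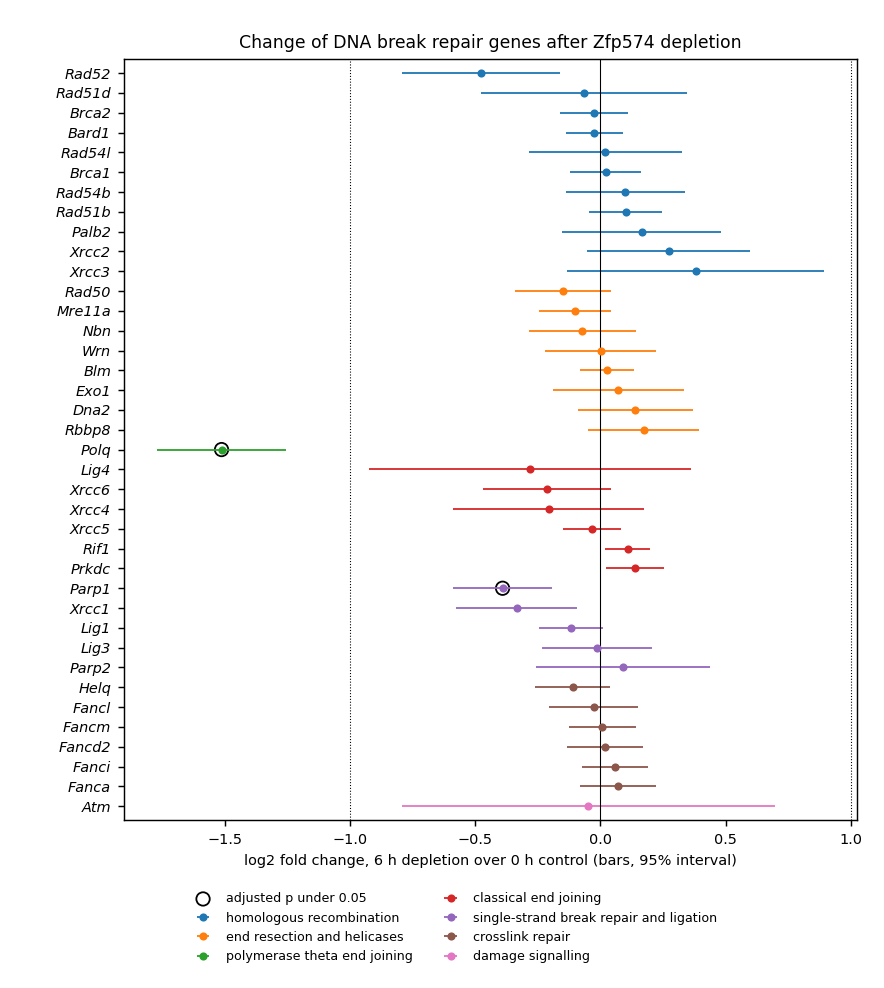
log2 fold change of the 38 tested members, 6 h depletion over 0 h control, with 95% intervals from edgeR's quasi-likelihood fit, grouped by role. Circles mark adjusted p under 0.05 and dotted lines a 2-fold change. Polq, at -1.51, lies beyond the 2-fold line, and the other members lie between -0.48 and 0.38.

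The genes of single-strand break repair and ligation included the second member called lower. Parp1 encodes the enzyme that senses breaks and builds poly(ADP-ribose) chains there. It had 240 counts in each library at 0 h, and 302 and 304 at 6 h, equal to 68.8 ± 4.68 CPM (SD, n = 2) and 52.4 ± 2.38 CPM (SD, n = 2). Both depletion libraries were below both controls once scaled for depth. The log2 fold change came to -0.39 ± 0.10 (standard error), and edgeR gave an adjusted p of 0.0244. This call was not firm. Without control replicate 1 the adjusted p was 0.176, without depletion replicate 1 it was 0.253 and without depletion replicate 2 it was 0.103, and in DESeq2 with its own size factors it was 0.740.

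Xrcc1, a scaffold protein that works with Parp1 and Lig3, had 128 and 154 counts at 0 h, and 185 in each library at 6 h. Its signal was 40.2 ± 2.52 CPM (SD, n = 2) and 32.0 ± 1.31 CPM (SD, n = 2), with no overlap of the groups. The log2 fold change was -0.33 (standard error 0.12), and with an adjusted p of 0.137 in edgeR's test it did not pass the threshold. Lig1, the ligase that joins Okazaki fragments, was the most densely transcribed gene of this group, at 7.12 ± 0.508 CPM per kb of annotated gene (SD, n = 2) in the controls and 6.55 ± 0.178 after depletion. Parp2, a relative of Parp1, was the least dense, at 1.21 ± 0.0826 and 1.29 ± 0.0836 CPM per kb. Lig3, the ligase partner of Xrcc1, had 167 and 169 counts at 0 h, and 268 and 283 at 6 h, a log2 fold change of -0.01 with a 95% interval from -0.23 to 0.21. The fall of Parp1 thus had no counterpart of similar size in Parp2 or Lig3. Over the 5 genes of the group the summed signal was 433 and 400 CPM in the controls and 364 and 382 CPM after depletion.

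In classical end joining, 0 of the 6 tested genes passed the threshold, where 1.40% of all genes tested were called lower and 1.11% higher. At an unadjusted p under 0.05 there were 2, a level that 16.2% of all genes tested reached. Those were Rif1 and Prkdc, both on the higher side. Rif1, which acts with Trp53bp1 against resection and also times replication, was the most densely transcribed of all members, at 18.9 ± 0.259 CPM per kb (SD, n = 2) in the controls and 20.4 ± 0.438 after depletion. Its log2 fold change came to 0.11 ± 0.04 (standard error), with an adjusted p of 0.215. Prkdc, the catalytic subunit of the DNA-dependent kinase, had 997 and 1185 counts at 0 h, and 2077 and 1893 at 6 h, a log2 fold change of 0.14 (standard error 0.06, adjusted p 0.214). The genes for the Ku proteins, Xrcc5 and Xrcc6, had log2 fold changes of -0.03 and -0.21, with 95% intervals from -0.15 to 0.08 and from -0.47 to 0.04. Lig4, the ligase of this route, had 21 and 15 counts at 0 h, and 25 and 24 at 6 h. At this depth its interval ran from -0.92 to 0.36, so that a sizeable fall was not detectable. Xrcc4, the partner of Lig4, was the least dense tested gene of the group, at 0.0489 ± 0.000516 and 0.0423 ± 0.00718 CPM per kb over an annotated length of 316 kb.

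In homologous recombination, 0 of the 11 tested genes passed the threshold, where 1.40% of all genes tested were called lower and 1.11% higher. The widest difference was that of Rad52, which anneals complementary strands. It had 76 and 111 counts at 0 h, and 111 in each library at 6 h, equal to 26.6 ± 5.27 CPM (SD, n = 2) and 19.2 ± 0.784 CPM (SD, n = 2). The groups did not overlap, but the controls differed from each other. The log2 fold change came to -0.48 ± 0.15 (standard error), with an adjusted p of 0.0978 in edgeR's test. It was -0.66 without control replicate 1 (adjusted p 0.0149) and -0.25 without control replicate 2 (adjusted p 0.597).

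The genes of the Brca complexes were measured more precisely. Brca1 and Bard1 together form a ubiquitin ligase that promotes resection, Palb2 bridges Brca1 to Brca2, and Brca2 acts on the resected strand. Brca1 had 569 and 735 counts at 0 h, and 1122 and 1063 at 6 h, a log2 fold change of 0.02 with a 95% interval from -0.12 to 0.16. Brca2 had 532 and 633 counts, and 995 and 897 after depletion, a log2 fold change of -0.03 with an interval from -0.16 to 0.11. Bard1, the densest of these genes at 4.11 ± 0.133 CPM per kb (SD, n = 2) in the controls and 4.04 ± 0.0306 after depletion, had a log2 fold change of -0.03 with an interval from -0.14 to 0.09. These 3 intervals all span 0 and are among the narrower ones of the members. Palb2 had 66 counts in each library at 0 h, and 128 and 117 at 6 h, a log2 fold change of 0.16 with an interval from -0.15 to 0.48.

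Xrcc2, Xrcc3, Rad51b and Rad51d encode accessory proteins of recombination. Xrcc3 had 18 and 27 counts at 0 h, and 49 and 48 at 6 h, the largest positive value among members, with a log2 fold change of 0.38, a standard error of 0.25 and an adjusted p of 0.488. Xrcc2 had 55 and 65 counts, and 123 and 117 after depletion, a log2 fold change of 0.27 (standard error 0.16, adjusted p 0.422). For both genes the groups did not overlap and neither passed the threshold. Rad51d had a log2 fold change of -0.07 (interval -0.48 to 0.35) and Rad51b 0.10 (interval -0.04 to 0.25). Rad51b had the lowest density in this group, at 0.272 ± 0.0265 CPM per kb in the controls and 0.292 ± 0.00508 after depletion, over a length of 517 kb. Rad54l and Rad54b, which encode motor proteins of recombination, had log2 fold changes of 0.02 and 0.10. Rad54b shares 7927 bp on the same strand with the row for Fsbp, so reads there cannot be assigned to either gene with certainty.

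For end resection and helicases, 0 of 8 genes passed the threshold and 0 reached an unadjusted p under 0.05 in edgeR's test. DESeq2 with its own size factors called 0 of them, where it called 0.489% of 12486 genes lower and 0.112% higher. In edgeR's test 1.40% of all genes were called lower and 1.11% higher, and 16.2% reached the unadjusted level. The subunits of the complex that opens resection, Mre11a, Rad50 and Nbn, had log2 fold changes of -0.10, -0.15 and -0.07, each with an interval that spans 0. Rbbp8, which encodes the cofactor CtIP, had 160 and 233 counts at 0 h, and 389 and 344 at 6 h, a log2 fold change of 0.17 (standard error 0.11, adjusted p 0.456). Its controls stood far apart, and without control replicate 1 its value was -0.0045. Exo1 and Dna2, the nucleases of long-range resection, had values of 0.07 and 0.14. Blm, the helicase lost in Bloom syndrome, was the densest of these genes, at 4.80 ± 0.0748 CPM per kb (SD, n = 2) in the controls and 4.88 ± 0.0137 after depletion. Wrn, the helicase lost in Werner syndrome, was the least dense, at 0.303 ± 0.00349 and 0.303 ± 0.0232 CPM per kb.

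Crosslink repair was the group with the narrowest spread. Its 6 genes had log2 fold changes between -0.11 and 0.07. In edgeR's test 0 of them passed the threshold and 0 reached an unadjusted p under 0.05. The shares of all genes tested were 1.40% lower and 1.11% higher at the threshold, and 16.2% at the unadjusted level. DESeq2 with its own size factors called 0 of the 6, where it called 0.489% of 12486 genes lower and 0.112% higher. Helq encodes a helicase related to the helicase part of polymerase theta. It had 399 and 476 counts at 0 h, and 708 and 633 at 6 h, a log2 fold change of -0.11 with an interval from -0.26 to 0.04, which does not reach the fall of Polq. Helq was the densest gene of the group, at 3.43 ± 0.194 and 3.18 ± 0.122 CPM per kb, and Fancl, the ubiquitin ligase subunit, the least dense, at 0.900 ± 0.0284 and 0.883 ± 0.0281. Fancd2 and Fanci, the pair that this ligase modifies, had values of 0.02 and 0.06. Atm, the kinase that signals breaks, was transcribed at 3.62 ± 1.26 CPM (SD, n = 2) in the controls and 3.46 ± 0.386 after depletion, and with 10 to 21 counts per library its interval ran from -0.79 to 0.70.

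Many repair genes start back to back with another gene, so that both may share a promoter region. In the annotation, 15 members had a neighbour in the count table on the opposite strand whose start lay within 1000 bp, at distances of 21 to 978 bp. All 15 neighbours were tested, and 0 passed the threshold in edgeR's test in either direction. Among all genes tested, 1.40% were called lower and 1.11% higher, so this count is near the background. The neighbours had log2 fold changes between -0.20 and 0.19 and a median of -0.02. Neighbours of few counts had wide intervals, such as Gm11423 beside Lig3 (-0.94 to 0.54) and Dctn5 beside Palb2 (-0.81 to 0.78). A sizeable change in these was not detectable. Nbr1, which starts 194 bp from Brca1, had 176 and 197 counts at 0 h, and 299 in each library at 6 h, a log2 fold change of -0.05 (interval -0.25 to 0.16). Mcm4, a subunit of the replicative helicase that starts 466 bp from Prkdc, had a value of 0.06 (interval -0.08 to 0.20). Npat, 307 bp from Atm, was transcribed at 50.0 ± 4.89 CPM (SD, n = 2) and 53.1 ± 0.524 CPM, with a value of 0.08. The low signal of Atm therefore stood beside a neighbour with many more counts, 155 and 196 at 0 h, and 318 and 296 at 6 h. Neither Polq nor Parp1 had such a neighbour in the table.

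**Figure D3:**
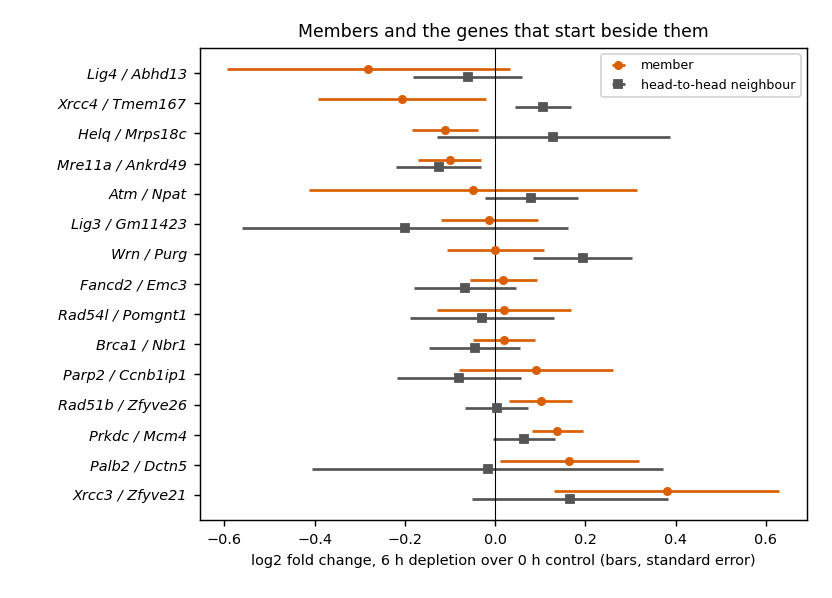
log2 fold change (6 h depletion over 0 h control, bars show the standard error) of the 15 members with a head-to-head neighbour (orange) and of that neighbour (grey). All neighbours lie between -0.20 and 0.19, and no gene in the plot passed the threshold.

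The rest of the pathway was described from a second list of 83 genes, of which 80 had a row and 77 were tested. At an adjusted p under 0.05, 3 were lower and 1 was higher, against 1.40% and 1.11% of all genes tested, and the median log2 fold change was -0.05. None was changed by 2-fold. Sem1, a small protein of the proteasome lid that also binds Brca2, had 187 and 188 counts at 0 h, and 196 and 160 at 6 h, equal to 53.8 ± 3.46 CPM (SD, n = 2) and 30.7 ± 3.15 CPM (SD, n = 2). Its log2 fold change came to -0.80 ± 0.11 (standard error), with an adjusted p of 4.59e-05 in edgeR's test, and it passed the threshold under every alternative tried. The groups were well apart, and Sem1 stood at 57.3% of its control level.

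H2ax, the histone variant that is phosphorylated around breaks, had 1377 and 1417 counts at 0 h, and 1972 and 1776 at 6 h, a log2 fold change of -0.31 (standard error 0.06, adjusted p 0.000921 in edgeR's test). Without depletion replicate 2 its adjusted p was 0.123. Rtel1, a helicase that takes recombination intermediates and telomere loops apart, had 588 and 640 counts, and 842 and 854 after depletion, a log2 fold change of -0.26 (standard error 0.07, adjusted p 0.0260). It did not pass the threshold without control replicate 1 (0.0694), depletion replicate 1 (0.342) or depletion replicate 2 (0.0948), nor in DESeq2 with its own size factors (0.764) or the recovered ones (0.0566). Rad1, a subunit of the clamp that activates Atr at damaged DNA, was the gene that rose. It had 230 and 242 counts at 0 h, and 546 and 515 at 6 h, equal to 67.6 ± 2.17 CPM (SD, n = 2) and 91.7 ± 0.0473 CPM (SD, n = 2), a log2 fold change of 0.44 (standard error 0.08, adjusted p 0.00203 in edgeR's test). In DESeq2 with its own size factors the adjusted p of Rad1 was 0.175.

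**Figure D4:**
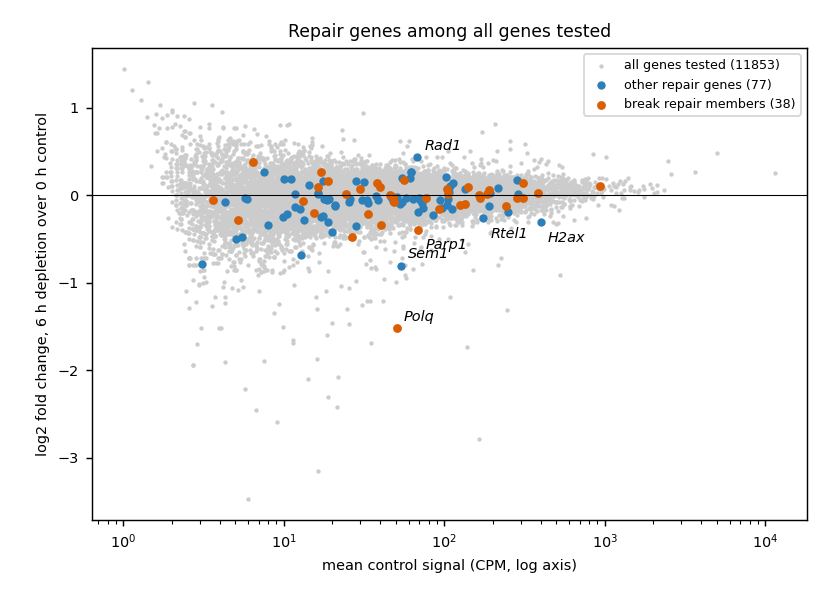
log2 fold change (6 h depletion over 0 h control) against the mean control signal in CPM on a log axis, for all 11853 genes tested (grey), the 38 tested members (orange) and 77 other repair genes (blue). Genes at an adjusted p under 0.05 in the 2 lists are named. Polq lies at -1.51 and Sem1 at -0.80, below the other repair genes of similar signal.

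Transcription of many repair genes follows the cell cycle, and the marker lists were read beside these values. Of 20 S phase genes, 1 was lower (Rrm2, log2 fold change -0.44, adjusted p 0.00540 in edgeR's test) and 0 were higher, with a median of -0.12. Their summed signal was 2087 to 2170 CPM in the controls and 1927 to 1930 CPM after depletion. Of 20 G2 and M phase genes, 19 were tested and 0 passed the threshold, with a median of -0.12. Their sums were 1728.0 to 1756.3 CPM in the controls and 1693.0 to 1727.6 CPM after depletion. Their part in the falls of Polq and Parp1 was not tested. In bulk libraries, fewer cells in a phase and less transcription per cell cannot be told apart. Of 15 embryonic stem cell markers, 13 had a row, with summed signals of 5578 to 5633 CPM in the controls and 5605 to 5697 CPM after depletion, and Utf1 was lower (log2 fold change -0.61). Of 7 fibroblast markers, Thy1 was the 1 with a row, at no more than 9 counts in a library. Of the primitive endoderm, mesoderm and neural ectoderm markers, 2 of 5, 1 of 5 and 5 of 5 had a row, and 0 passed the threshold in edgeR's test. The summed signal of the neural ectoderm list was 89.3 and 98.5 CPM at 0 h against 110.4 and 109.6 CPM at 6 h, with no overlap. Its 4 tested genes had log2 fold changes from 0.06 to 0.56 (median 0.24). The sums of the S phase, G2 and M phase and primitive endoderm lists did not overlap either, and were lower at 6 h. For G2 and M phase the gap was very small (1728.0 against 1727.6 CPM). The primitive endoderm sum came mostly from Sox7, as Sox17 had no more than 8 counts in a library. Among single genes tested, 22.9% had both depletion libraries below both controls and 23.4% above. Primitive endoderm sums were 13.8 to 14.2 CPM at 0 h and 12.1 at 6 h, and mesoderm sums were 6.91 to 9.01 and 7.73 to 9.61 CPM. Their part in the results was not tested. Transcription of Zfp574 itself, whose protein and not gene is targeted, had a log2 fold change of 0.25 (standard error 0.14, adjusted p 0.406).

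The call of Polq did not depend on scaling or on any library. Its log2 fold change lay between -1.62 and -1.51 over 10 other scalings, tests, filters and designs, and between -1.58 and -1.44 when each library was left out in turn, with an adjusted p of at most 6.62e-06 in all of them. Scaling matters for smaller changes. Under the scaling that the authors' own table implies, the median of all genes moved to -0.11, and 5 members were lower at an adjusted p under 0.05, against 5.89% of all genes tested. These were Polq, Parp1, Rad52, Xrcc1 and Lig1, and the median of the members moved with all genes, to -0.11.

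**Figure D5:**
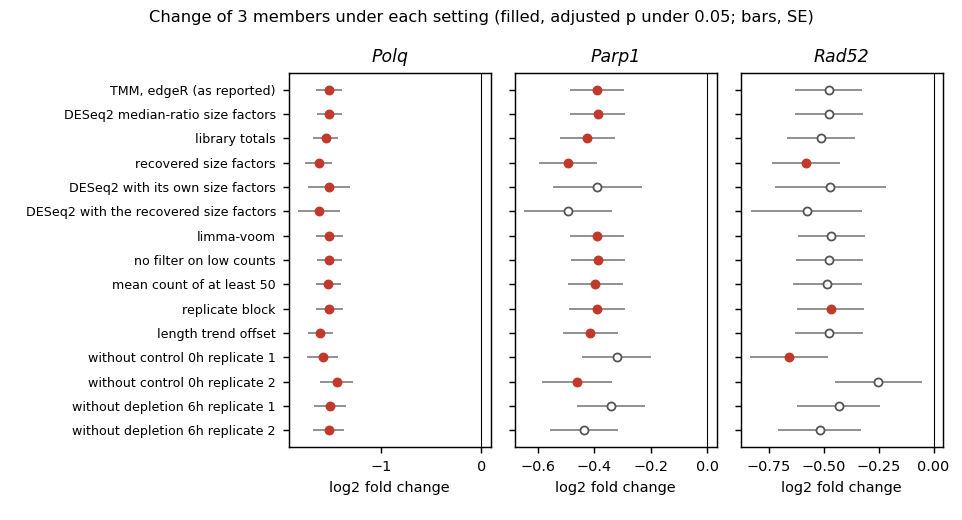
log2 fold change of Polq, Parp1 and Rad52 under the reported fit and each of 14 alternatives, with standard errors. Filled points have an adjusted p under 0.05. Polq is filled throughout, whereas Parp1 and Rad52 change sides of the threshold between settings.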

How the data were processed

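PRO-seq libraries of AID-Zfp574 mES cells were compared between the 0 h control and 6 h of IAA, with 2 libraries each. The authors trimmed adapters with cutadapt 1.18, mapped reads to mm10 with Bowtie 1.2.2, kept unique best positions, collapsed reads by molecular identifier and counted nascent 3′ ends on the transcribed strand of each gene. The deposited counts are whole numbers and not normalized; they sum to 3298864 to 6045216 per library. Because reads needed a unique position, near-identical copies are undercounted. The authors also deposited a DESeq2 comparison; its fold change and p columns were not used. The mean normalized signal in it, which the authors made by dividing counts by size factors and averaging all libraries, served only to recover those factors (0.699 and 0.740 for the controls, 1.32 and 1.24 for depletion). The methods describe these as spike-in factors equal within a condition, which the recovered ones are not.

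Genes passing filterByExpr (minimum count 10, minimum total 15) were tested with edgeR 4.0.16 in R 4.3.3 (TMM scaling, two-sided quasi-likelihood F test, a model of condition alone), and p was adjusted by Benjamini-Hochberg across these genes. A call needed an adjusted p under 0.05, and 2-fold calls needed a log2 fold change of at least 1 in size. Standard errors and 95% intervals follow from the F statistic. DESeq2 1.42.0 and limma 3.58.1 were used for alternatives. GENCODE M21 (mm10) gave gene positions and lengths for 12474 of 12486 rows. It lacks the authors' corrected start sites, and CPM per kb uses this length. The authors counted reads over the transcript nearest each corrected start, which can be shorter than the annotated gene. Densities and their ranks are therefore approximate. For the same reason a low count, as in Atm or Trp53bp1, need not mean low transcription of the whole gene. Scripts were tested on simulated data. Replicates differed by more than sampling noise (chi-square over its degrees of freedom, 1.85 between controls and 1.49 between depletion libraries).

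Members and gene lists were chosen with earlier results of these data known. Named were Polq, called members, the 3 largest rises and falls, the densest and least dense member of each role, untested members, called genes of the wider repair list, head-to-head neighbours and the rows beside Polq; further members were named for their role. The promoter words were chosen after the values were seen.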

Additional observations from a re-analysis of the deposited data

How the results depend on the processing

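With 2 libraries per condition, genes of few counts, such as Lig4, Atm and Xrcc3, allow only wide intervals. In all 14 alternatives Polq stayed the 1 member lower by 2-fold, and 0 members were higher. Over these alternatives 0.192% to 0.481% of all genes were lower by 2-fold, and 0.0320% to 3.09% were called higher. The count of 0 higher is thus near the background. The number of members lower at an adjusted p under 0.05 was 2, where 1.40% of all genes were. It moved to 5 with the recovered size factors (5.89% of all genes). It moved to 1 in DESeq2 with its own size factors (0.489%) or with the recovered ones (0.937%). In the fits that each left out 1 library, a lone library is assumed to vary like the other group. Parp1 lost its call in those DESeq2 fits and without control replicate 1, depletion replicate 1 or depletion replicate 2, and its log2 fold change ranged from -0.46 to -0.32 when a library was left out. Other repair genes called lower moved from 3 to 7 with the recovered size factors, where 5.89% of all genes were called lower. They moved to 5 with the replicate block (2.53% of all genes) and to 2 in both DESeq2 fits (0.489% and 0.937%). Those called higher moved from 1 to 0 in both DESeq2 fits (0.112% and 0.0320% of all genes) and to 2 with the replicate block (3.09%). Libraries of the same replicate number showed little common deviation over all genes tested (correlation 0.038), so the numbers were not taken as a pairing. Sampling noise in genes of few counts lowers such a correlation, so it cannot exclude a pairing. With the replicate block, 3 members were lower, namely Parp1, Polq and Rad52, while the share of all genes called lower rose from 1.40% to 2.53% and that called higher from 1.11% to 3.09%. The median of the members was -0.040 with library totals, -0.11 with the recovered size factors, -0.12 in DESeq2 with them and -0.063 with an offset for gene length, where the median of all genes was -0.036, -0.11, -0.11 and -0.032; it ranged from -0.026 to 0.012 when a library was left out. The members are long genes, with a median length of 51.3 kb against 22.2 kb for all genes tested. Rbbp8 ranged from -0.0045 without control replicate 1, a change of sign, to 0.40 without control replicate 2. The cause of these moves was not tested.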
